A study of Mus musculus with 12 samples.

Results

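The expressed Zfp genes, a large group of mouse genes for zinc finger proteins, were followed in zygotes through Lsm1 knockdown and LSM1-FLAG RNA immunoprecipitation. Members were the protein-coding genes with a symbol of Zfp and a number whose TPM (a transcript level scaled for transcript length and library depth), summed over their RefSeq transcripts, averaged above 1 in the 2 control RNA-seq libraries. This gave 258 of the 385 protein-coding Zfp genes, among 25091 genes and repeat families in the series. The control values that chose the members are therefore given as a description. Just inside the limit stood Zfp689, Zfp119a and Zfp551 at 1.04, 1.07 and 1.08 TPM. Just outside it stood Zfp715, Zfp607a and Zfp800 at 0.962, 0.960 and 0.890 TPM.

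The labels give all 12 libraries as zygotes of superovulated B6D2F1 females aged 8 to 10 weeks, mated and collected 18 to 20 h after hCG. The study's methods state a lower age range for the females. For RNA-seq, 2 libraries were from zygotes injected with Lsm1 siRNA (Lsm1_KD) and 2 from zygotes injected with scramble siRNA (Ctrl). For RIP-seq, zygotes received either Lsm1_3XFlag mRNA (FLAG) or untagged Lsm1 mRNA (Ctrl), and RNA bound to anti-FLAG gel (IP) was sequenced beside the lysate (Input), with 2 libraries in each of the 4 groups. The titles of the control RIP-seq libraries say IgG while their treatment field says Lsm1 mRNA, so they are called the Ctrl IP and Ctrl Input here. The labels place the injection at the zygote stage. The study also describes knockdown from the oocyte stage, followed by in vitro maturation and in vitro fertilization in place of mating. Which of these applies to the sequenced knockdown and Ctrl libraries was not settled. Every library is a pool of zygotes from females of 1 hybrid background. The study describes only a few zygotes per RNA-seq library and far more per RIP-seq library. It describes the 2 libraries of a group as biologically independent, although the labels do not name separate collections. The p-values measure the spread between these libraries.

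Zfp proteins read DNA, and in some cases RNA or protein, through C2H2 zinc fingers, small folds in which a pair of cysteines and a pair of histidines hold a zinc ion. Many also carry a KRAB box near the N terminus, which recruits the corepressor TRIM28 and, through it, SETDB1 and histone H3K9 trimethylation. In the egg and early embryo such KRAB zinc finger proteins protect imprinted methylation and silence retroelements, and most are encoded in gene clusters that arose by tandem duplication. LSM1 is a subunit of the cytoplasmic LSM1-7 ring, which binds the 3′ end of deadenylated mRNAs and promotes decapping and decay.

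The finger itself is visible in the transcripts of the members that later results turn on. In the units below, each 84 bases long and read 5′ to 3′ from the mm10 (GRCm38) genome at the coordinates of the RefSeq coding sequence, the capitals mark the cysteine and histidine codons that hold the zinc ion. The last bases of each unit encode the linker to the next finger. Zfp383, Zfp267 and Zfp3 are shown because they changed in the knockdown, Zfp873 because it was called lower both in the knockdown and in the FLAG IP, and the last 4 because their copies can hardly be told apart by short reads.
Zfp383 (chr7:29914964-29915047, plus strand): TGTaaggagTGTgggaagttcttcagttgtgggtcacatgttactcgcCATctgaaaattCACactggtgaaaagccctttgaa
Zfp267 (chr3:36165273-36165356, plus strand): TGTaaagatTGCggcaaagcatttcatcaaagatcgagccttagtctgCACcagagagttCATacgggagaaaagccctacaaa
Zfp3 (chr11:70771796-70771879, plus strand): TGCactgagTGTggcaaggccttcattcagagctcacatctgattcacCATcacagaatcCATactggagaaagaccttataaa
Zfp873 (chr10:82059893-82059976, plus strand): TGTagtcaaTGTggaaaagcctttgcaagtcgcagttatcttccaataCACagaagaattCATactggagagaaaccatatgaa
Zfp966 (chr2:175921196-175921279, minus strand): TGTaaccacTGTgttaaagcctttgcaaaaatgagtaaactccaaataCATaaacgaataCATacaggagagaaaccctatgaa
Zfp967 (chr2:176530825-176530908, plus strand): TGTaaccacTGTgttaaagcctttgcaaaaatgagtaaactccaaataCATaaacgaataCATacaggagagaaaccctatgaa
Zfp600 (chr4:146195520-146195603, plus strand): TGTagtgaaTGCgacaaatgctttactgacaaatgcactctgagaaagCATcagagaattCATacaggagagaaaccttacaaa
Zfp980 (chr4:145701459-145701542, plus strand): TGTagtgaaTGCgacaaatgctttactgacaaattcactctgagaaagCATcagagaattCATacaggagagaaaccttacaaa

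The Zfp966 and Zfp967 units differed at 0 of 84 bases, the Zfp600 and Zfp980 units at 1, and the Zfp383 and Zfp267 units at 34. Such units were found by a stricter pattern than the fingers counted below, since each had to run through the usual linker to the next finger, lie within 1 exon and not overlap another match, so that the 564 units from 156 genes are a part of all fingers. The most common linker spelling, ACTGGAGAGAAACCC, was read from 73 of these units, and on either strand it occurred in the coding sequences of 52 of the 258 members (20.2%) against 38 of 20300 other coding genes (0.187%). This motif was chosen from these genes, so its share is a description of them.

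Of the 258 members, 150 carried a KRAB box by pattern and 108 did not. A member encoded a median of 10.5 C2H2 fingers by pattern, ranging from 0 in Zfp36, whose fingers are of another class, to 36 in Zfp142. KRAB members had a median GC content of 40.7% against 50.8% for members without a found KRAB box and 49.3% for all protein-coding genes above the same TPM limit. The members lay on 20 chromosomes, with 57 on chromosome 7, 34 on chromosome 17, and 20 each on chromosomes 2, 8 and 13. In 12 members, over 20% of the 100-base windows also occurred in another gene, and their counts are uncertain for that reason. Among them, every window of Zfp966 and Zfp967 occurred in another gene, chiefly in each other, and their TPM values were equal.

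Lsm1 itself was at 63.6 and 71.03 CPM (counts scaled to library size, here with TMM normalisation) in Lsm1_KD and at 143 and 147 in Ctrl (edgeR quasi-likelihood test, log2 change −1.10 ± 0.22 SE, adjusted p = 0.0118). Total counts ran from 4636492 to 13968315 in the RNA-seq libraries and from 9865512 to 31586450 in the RIP-seq libraries. In the RIP-seq, Lsm1 RNA reached an unscaled CPM of 9931 and 14731 in FLAG Input and of 16.3 and 16.1 in Ctrl Input, so no injected Lsm1 RNA was visible in the control lysates. The FLAG IP libraries were unlike each other: repeats made up 12.7% of the counts of replicate 1 and 2.63% of those of replicate 2, where Ctrl IP had 1.08% to 1.96%, and the unscaled CPM of Lsm1 was 11125 in replicate 1 and 121440 in replicate 2. Oocyte and zygote markers were present at a summed 35703 to 41343 TPM in Ctrl, while 12 cumulus and granulosa markers summed to 13.5 to 20.2 TPM there, with Cyp19a1 at 10.4 to 16.02 TPM and Cyp11a1 at 2.33 to 3.85. Of these 12, Foxl2, Amh, Ptx3, Fshr and Amhr2 were listed at 0 in all 4 RNA-seq libraries.

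The zygotes held most members at low levels and a few at high ones. Of the 258 members, 87 had a mean Ctrl level at or below 5 TPM, 148 stood between 5 and 100, and 23 exceeded 100, and the 8 most abundant members held 32.9% of the members' summed TPM. Zfp57, the KRAB protein that guards methylated imprints, was the highest at 909 and 831 TPM in the 2 Ctrl libraries. Zfp655, a KRAB member, followed at 415 and 385 TPM, and its range did not overlap that of Zfp57. Zfp513 was at 279 and 394, Zfp207, a spindle and kinetochore protein, at 205 and 289, Zfp664 at 210 and 261, and Zfp330, a nucleolar protein in which the finger pattern was not found, at 210 and 240. Apart from Zfp57, each gene in this order overlapped the next in its range over 2 libraries, so that neighbours were not told apart, while Zfp513 lay above both Zfp664 and Zfp330 in each library. The identical Zfp966 and Zfp967 were each listed at 163 and 239 TPM.

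**Figure D1:**
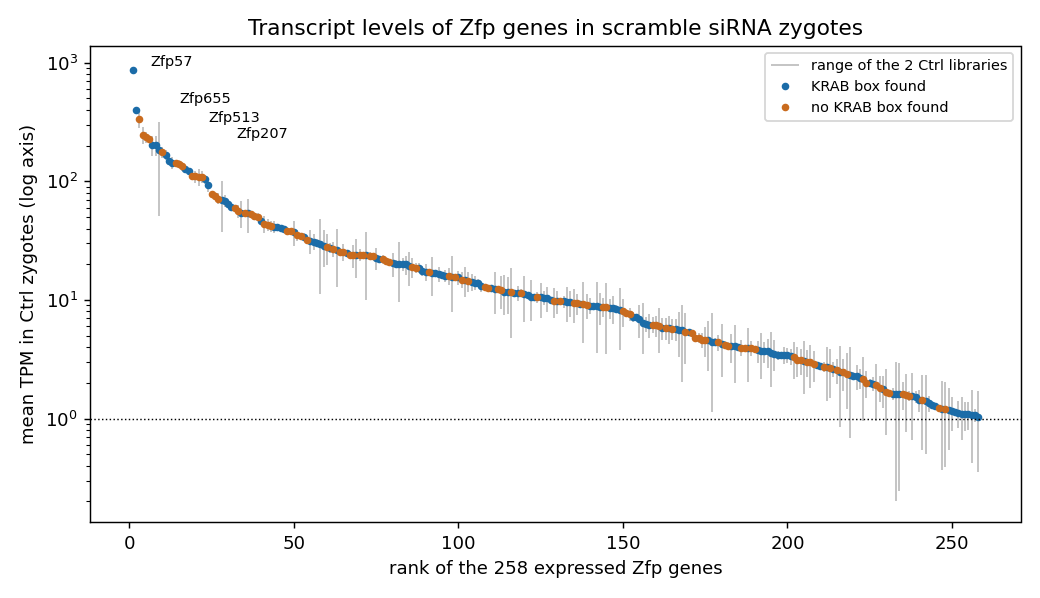
Mean TPM in the 2 Ctrl RNA-seq libraries (log axis) for the 258 expressed Zfp genes in rank order, coloured by whether a KRAB box was found; grey lines span the 2 libraries and the dotted line marks the limit of 1 TPM. Zfp57 leads at 870 TPM, 23 genes lie above 100 TPM and 87 at or below 5.

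The members ranked similarly in the RIP-seq lysates. Across the 258 members, log2 (TPM + 1) in Ctrl and in the separately made Ctrl Input libraries had a Pearson's r of 0.85 and a Spearman's rho of 0.83, as a description over genes that share libraries. Of the 258 members, 239 also exceeded 1 TPM in Ctrl Input. The median member stood at 9.83 TPM in Ctrl, 7.65 in Lsm1_KD, 8.53 in Ctrl Input and in FLAG Input, against 16.1, 13.7, 13.9 and 12.6 TPM for all protein-coding genes above the limit. The members together took 1.11% to 1.20% of RNA-seq counts.

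The knockdown of Lsm1 changed a small number of Zfp transcripts in both directions. Of 252 members that passed the count filter, 13 rose and 9 fell at an adjusted p under 0.05, and the median log2 change of the members was 0.00. These shares, 5.16% and 3.57%, stood beside 6.45% and 4.56% of all 11335 genes and repeats tested, and beside 6.73% and 5.05% of protein-coding genes chosen by the same TPM limit. With members chosen by Ctrl Input instead, which did not enter the contrast, 11 rose and 9 fell of 243. With a change beyond 1 on the log2 scale also required, 12 rose and 7 fell, against 5.40% and 2.75% of all genes and 5.58% and 3.03% of protein-coding genes above the TPM limit. The groups of CPM values did not overlap in 74 members that were higher in Lsm1_KD and 77 that were lower, or 29.4% and 30.6% of members, beside 29.3% and 28.6% of all genes and 27.4% and 30.8% of those protein-coding genes. The 6 members not tested were Zfp119a, Zfp273, Zfp551, Zfp689, Zfp72 and Zfp772. Since bulk RNA was measured, fewer transcripts per zygote and a change in the other transcripts of the pool cannot be told apart. On the TPM scale with limma, where the median of all genes itself shifted by −0.23, 3 members rose and 11 fell. The share of all genes called on that scale is not given, so these counts are not read as a result about the members. Without Ctrl replicate 2 the median log2 change was −0.02 for members and 0.04 for all genes. Without Lsm1_KD replicate 2 it was −0.14 for members and −0.05 for all genes.

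**Figure D2:**
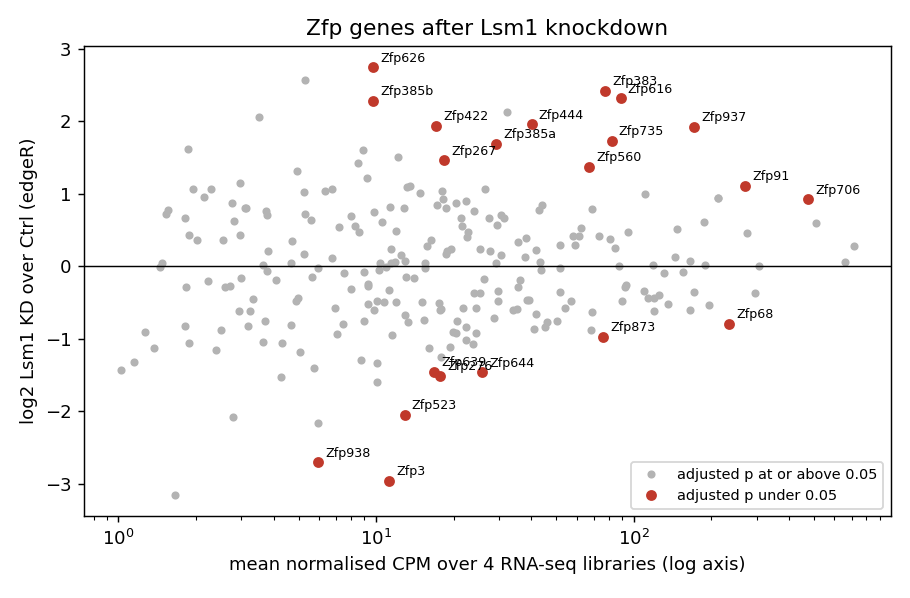
Log2 change in Lsm1_KD over Ctrl (edgeR) against mean normalised CPM over the 4 RNA-seq libraries (log axis), 1 point per tested Zfp gene, with the genes called at an adjusted p under 0.05 in red and named. Zfp1, which had no count in Lsm1_KD, is not drawn; called genes spread above and below a median of 0.00.

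Of the members that rose, Zfp383, a KRAB member of 11 fingers on chromosome 7, had the smallest adjusted p. It was at 105 and 155 CPM in Lsm1_KD and at 28.7 and 19.7 in Ctrl, so both knockdown libraries were above both controls (log2 change 2.42 ± 0.29 SE, 5.36-fold, adjusted p = 0.00162). Zfp616, of 18 fingers on chromosome 11, was at 174 and 121 CPM in Lsm1_KD and at 23.3 and 36.2 in Ctrl (2.32 ± 0.30 SE, 4.98-fold, adjusted p = 0.00193). Zfp735, a KRAB member also on chromosome 11, was at 112 and 140 CPM against 23.7 and 52.6 (1.73 ± 0.35 SE, adjusted p = 0.0135). Zfp383 and Zfp616 were called in each of the 12 alternative fits run.

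Among the other genes that rose, Zfp385a and Zfp91 encode proteins known for roles outside DNA binding. Zfp385a, an RNA-binding cofactor of p53, was at 38.3 and 50.9 CPM in Lsm1_KD and at 11.4 and 16.4 in Ctrl (1.69 ± 0.33 SE, adjusted p = 0.0118). Its paralogue Zfp385b was at 16.2 and 15.9 CPM against 2.42 and 4.27 (2.29 ± 0.51 SE, adjusted p = 0.0205). Zfp91, an atypical E3 ubiquitin ligase, was at 347 and 393 CPM against 186 and 157 (1.11 ± 0.20 SE, adjusted p = 0.00817). For Zfp91, 41.2% of windows also occurred in the locus Gm44505, so the reads of the pair cannot be told apart. Zfp706, a small protein with 1 finger, was at 561 and 683 CPM against 355 and 302 (0.92 ± 0.20 SE, adjusted p = 0.0177), and had the highest CPM of the 22 called members.

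The remaining genes that rose were of low or middle level. Zfp560, a KRAB member, was at 63.4 and 130 CPM in Lsm1_KD and at 40.1 and 34.8 in Ctrl (adjusted p = 0.0266). Zfp267, also with a KRAB box, was at 28.5 and 25.3 CPM against 8.15 and 11.4 (1.46 ± 0.37 SE, adjusted p = 0.0329). Zfp422 was at 29.1 and 24.9 CPM against 3.77 and 10.6 (1.94 ± 0.50 SE, adjusted p = 0.0337). The other 3, Zfp626, Zfp937 and Zfp444, are named after their values were seen. In each, the libraries of a group lay far apart: Zfp626 was at 26.9 and 6.80 CPM against 1.75 and 3.31, Zfp937 at 347 and 197 against 29.1 and 115, and Zfp444 at 87.9 and 39.5 against 7.54 and 25.6.

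**Figure D3:**
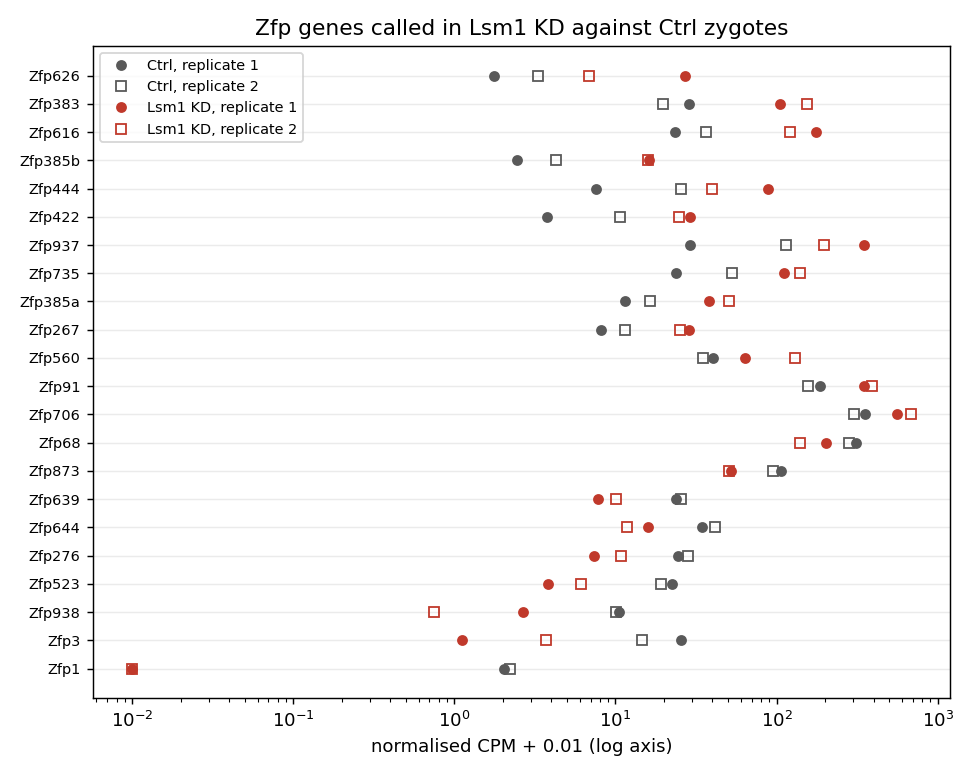
Normalised CPM plus 0.01 (log axis) in each RNA-seq library for the 22 Zfp genes called in Lsm1_KD against Ctrl, ordered by log2 change; grey points are Ctrl, red points Lsm1_KD, filled for replicate 1 and open for replicate 2. In all 22 genes the 2 red points lie on one side of the 2 grey points, and Zfp1 sits at the left edge in both Lsm1_KD libraries. The genes were picked by this same comparison, so the separation adds no support to the calls.

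Among the members that fell, Zfp3 and Zfp523 were called in each of the 12 alternative fits. Zfp3, of 13 fingers, was at 1.11 and 3.68 CPM in Lsm1_KD and at 25.5 and 14.6 in Ctrl (log2 change −2.96 ± 0.60 SE, adjusted p = 0.0136). Zfp523, a paralogue of the promoter-binding factor Zfp143, was at 3.78 and 6.06 CPM against 22.4 and 19.3 (−2.05 ± 0.45 SE, adjusted p = 0.0186). Zfp143 itself was at 18.7 and 12.04 CPM against 33.1 and 30.8, with an adjusted p of 0.0731. Zfp644, a partner of the H3K9 methyltransferases G9a and GLP, was at 15.8 and 11.9 CPM against 34.3 and 41.5 (−1.46 ± 0.33 SE, adjusted p = 0.0209). Zfp276 was at 7.34 and 10.8 CPM against 24.3 and 28.4 (adjusted p = 0.0318), and Zfp639 at 7.79 and 10.0 against 23.7 and 25.6 (adjusted p = 0.0346).

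The KRAB members that fell included both abundant and rare transcripts. Zfp873 was at 51.8 and 50.4 CPM in Lsm1_KD and at 106 and 94.5 in Ctrl (−0.97 ± 0.23 SE, adjusted p = 0.0251), and Zfp68 was at 203 and 140 against 310 and 283 (−0.79 ± 0.22 SE, adjusted p = 0.0481). Zfp938, which lies near Zfp873 on chromosome 10, was at 2.67 and 0.735 CPM against 10.4 and 10.1 (adjusted p = 0.0409). Zfp1 had no count in either Lsm1_KD library and 2.02 and 2.20 CPM in Ctrl. Against a floor of 3 counts over the Lsm1_KD group, Zfp1 was at least 11.3-fold lower, and its call (adjusted p = 0.0469) held in 3 of the 11 alternative fits that gave an adjusted p. The floor covers counting error only.

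By role, counts are read beside the 6.45% of all genes that rose and the 4.56% that fell, and beside 3075 of 11335 with an unadjusted p under 0.05. Here 0 of 5 imprint and retroelement silencers were called by edgeR or by any alternative fit, and 2 had an unadjusted p under 0.05. Zfp57 was at 780 and 783 CPM in Lsm1_KD and at 661 and 634 in Ctrl (log2 change 0.27 ± 0.18 SE, adjusted p = 0.362). Zfp445, which maintains imprints together with Zfp57, was at 23.6 and 25.8 CPM against 37.1 and 31.9 (adjusted p = 0.323). Zfp932 and Zfp708, known for binding endogenous retroviruses, had log2 changes of −0.66 and 0.76 (adjusted p = 0.141 and 0.158), and Zfp809, which silences retroviral DNA, one of 0.36 (adjusted p = 0.870). The 5 members of this list had a median of 0.27, beside 0.01 for all genes tested. Of 20 listed transcription and chromatin factors, 0 rose and 2 fell, Zfp523 and Zfp644, with a list median of −0.33. Zfp296, a factor of pluripotent cells, was at 48.1 and 59.5 CPM against 87.6 and 79.2 (adjusted p = 0.123). Of 12 listed members that act on RNA, ribosomes or the spindle, 3 rose, Zfp91, Zfp385a and Zfp706, and 0 fell, with a list median of 0.14. Of these 3, Zfp91 is better known as a ubiquitin ligase.

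Within the same list, the mRNA decay factor Zfp36 (tristetraprolin), which destabilises AU-rich transcripts, was at 12.5 and 23.3 CPM in Lsm1_KD and at 7.68 and 4.96 in Ctrl (1.5 ± 0.48 SE, adjusted p = 0.0731). Zfp598, the sensor of collided ribosomes, was at 173 and 208 CPM against 199 and 177 (0.02 ± 0.20 SE, adjusted p = 0.963). Zfp207 was at 156 and 163 CPM against 186 and 277 (adjusted p = 0.162). Zfp966 and Zfp967 were each at 334 and 223 CPM against 114 and 177, with adjusted p = 0.0505 and 0.0507, just short of the threshold. Zfp664 (635 and 591 CPM against 353 and 461, adjusted p = 0.0833) and Zfp330 (101 and 88.7 against 132 and 159, adjusted p = 0.0956) did not pass either.

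Of 145 tested KRAB members, 6 rose (4.14%) and 4 fell (2.76%) in the knockdown, with a median log2 change of −0.01. Of 107 tested members without a found KRAB box, 7 rose (6.54%) and 5 fell (4.67%), with a median of 0.04. Of all genes, 6.45% rose and 4.56% fell, and the difference between the classes was not tested. Of 39 listed genes for KRAB cofactors and H3K9me3 silencing, 4 rose and 2 fell, beside 6.45% and 4.56% of all genes, with a median log2 change of −0.04 beside 0.01. Rbbp4, a histone-binding subunit of several chromatin complexes, was at 124 and 120 CPM in Lsm1_KD and at 20.0 and 20.4 in Ctrl (2.59 ± 0.24 SE, adjusted p = 0.00100). The heterochromatin proteins Cbx3 and Cbx1 rose with log2 changes of 1.62 and 1.09 (adjusted p = 0.0361 and 0.0200). The study, which calls Cbx1 Hp1β, described it as rarely changed in its RNA-seq, and its qPCR found no significant change. Mphosph8, the H3K9me3 reader of the HUSH complex, rose with a log2 change of 1.12 (adjusted p = 0.00859). Hdac1, a histone deacetylase, was at 9.12 and 6.34 CPM against 42.5 and 83.7 (−3.05 ± 0.40 SE, adjusted p = 0.00212), and Gatad2b, a subunit of the NuRD complex, fell by 0.98 on the log2 scale (adjusted p = 0.00998). Trim28 was at 355 and 314 CPM against 205 and 368 (adjusted p = 0.636), and Setdb1 at 153 and 193 against 204 and 224 (adjusted p = 0.383).

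Among the 11 found 2-cell markers, 6 were tested in the knockdown and 1 was called, Tcstv1, at 26.9 to 44.0 TPM in Lsm1_KD and 136 to 185 in Ctrl (log2 change −1.92, adjusted p = 0.00777). The markers together summed to 49.7 to 62.9 TPM in Lsm1_KD and to 156 to 225 in Ctrl, most of it Tcstv1. Of those tested and not called, Zscan4c and the member Zfp352 had log2 changes of 0.53 and 1.07. Eif1a, Tcstv3 and Zscan4f, also not called, had log2 changes of −2.21, −0.52 and −0.32. The median over the tested markers was −0.42. Usp17lc was listed at 0 in all 4 RNA-seq libraries. The 12 cumulus and granulosa markers summed to 11.8 to 14.7 TPM in Lsm1_KD and 13.5 to 20.2 in Ctrl, and these ranges overlapped. The part of either list in the changes of Zfp genes was not tested.

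In the RIP-seq, some Zfp transcripts were higher and some lower in FLAG IP than in FLAG Input. Of 258 members, 29 were higher and 14 lower in FLAG IP than in FLAG Input, and the median log2 ratio was −0.29. These shares, 11.2% and 5.43%, stood beside 21.0% and 5.48% of all 18972 genes and repeats, and beside 5.84% and 9.52% of protein-coding genes above the same TPM limit, whose median ratio was −0.56. All 29 members that were higher also had a ratio above 0 in the Ctrl arm, from 0.13 to 3.68 with a median of 1.22. Within the single lysates, 28 of them were above 0 in all 4, but the 2 FLAG lysates were used to pick them. How many of all genes called higher in FLAG IP were also above 0 in the Ctrl arm is not given. The count is therefore not read as a trait of the members. Across protein-coding genes above the TPM limit, the ratios of the 2 arms had a Pearson's r of 0.67, beside 0.77 across members. In the Ctrl arm, 1 member was called higher and 0 lower, beside 2.12% and 0.00527% of all genes and 0.574% and 0.00957% of protein-coding genes above the TPM limit, and the median log2 ratio was 0.01. In that arm, 19 of 258 members had an unadjusted p under 0.05, beside 3224 of all 18972 genes and repeats. DESeq2 called 6 members there. With each arm fitted on its own 4 libraries, the order of the counts turned, with 28 members higher and 2 lower in the Ctrl arm and 14 higher and 1 lower in FLAG.

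These counts depended on the libraries and on the pairing. IP and Input of a pair share a lysate in the study's methods, and with the lysate as a block 33 members were higher and 31 lower in FLAG, with all 29 and 13 of the 14 kept, while 9 were higher and 1 lower in the Ctrl arm. Without FLAG IP replicate 1, the library rich in repeats, 26 were higher and 19 lower, of which 15 and 8 were called before. Without FLAG IP replicate 2, the median log2 ratio was −0.77 for members and −0.96 for protein-coding genes above the TPM limit. Leaving out either FLAG Input library reduced the number of members called in both directions. With the trend on transcript length removed, which moved the median of all genes from 0.49 to −0.19, the counts were 15 and 45. On the TPM scale with limma they were 4 and 30. The share of all genes called under each alternative is not given, so these counts are not read as results about the members. The cumulus and granulosa markers summed to 7.78 TPM in one FLAG IP library and 42.9 in the other, against 7.49 to 9.26 in Ctrl IP, and their part in these ratios was not tested.

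**Figure D4:**
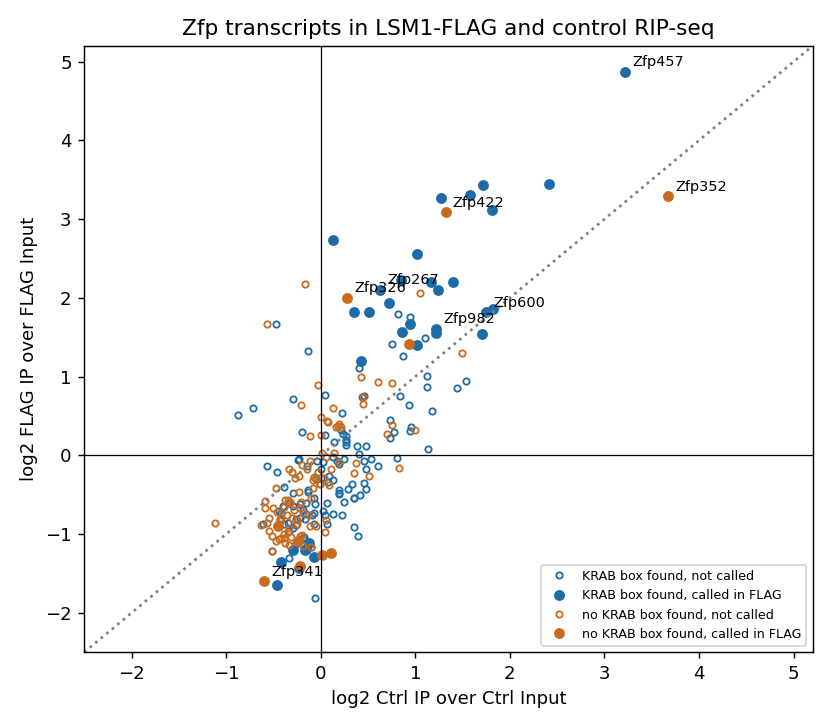
Log2 ratio of FLAG IP over FLAG Input against log2 ratio of Ctrl IP over Ctrl Input (edgeR) for the 258 expressed Zfp genes; filled points were called in FLAG at an adjusted p under 0.05, colours show whether a KRAB box was found, and the dotted line marks equal ratios. The 29 filled points above 0 all lie to the right of 0 in the Ctrl arm, and Zfp352 is high in both arms.

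Zfp352, a gene of retroelement-like origin known from 2-cell embryos, had the smallest adjusted p in both arms. It was at 34.2 and 63.8 CPM in FLAG IP against 3.49 and 6.51 in FLAG Input (log2 ratio 3.29 ± 0.44 SE, adjusted p = 0.00238). In the Ctrl arm it was at 71.03 and 45.3 CPM against 4.71 and 4.37 (3.68 ± 0.45 SE, adjusted p = 0.00168), and it was the sole member called there. The IP values of the 2 arms overlapped.

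Zfp267, which rose in the knockdown, was at 75.6 and 50.2 CPM in FLAG IP and at 15.1 and 14.2 in FLAG Input (2.11 ± 0.32 SE, adjusted p = 0.00323). In the Ctrl arm it was at 22.6 and 26.1 CPM against 14.7 and 16.8 (0.63 ± 0.31 SE, adjusted p = 0.338). Zfp457 had the highest ratio, at 28.9 and 6.39 CPM against 0.255 and 0.936 (4.87 ± 0.88 SE, adjusted p = 0.00567), with 3.598 and 2.34 against 0.354 and 0.267 in the Ctrl arm. Zfp972, a short KRAB transcript without fingers, was at 55.7 and 18.7 CPM against 4.04 and 4.56 (3.11 ± 0.60 SE, adjusted p = 0.00722). In both of these, FLAG IP replicate 1 was the higher library by a wide margin.

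Of the 29, 25 carried a KRAB box, or 16.7% of 150 KRAB members, and 4 did not, or 3.70% of the other 108. All genes were called higher at 21.0% and protein-coding genes above the TPM limit at 5.84%. Of the lower 14, 8 carried a KRAB box (5.33%) and 6 did not (5.56%), beside 5.48% of all genes and 9.52% of those protein-coding genes. The difference between the classes was not tested. The 29 had a median Ctrl level of 3.53 TPM, below the 9.83 TPM of all members. The lower 14 had a median Ctrl level of 18.2 TPM. Across the 258 members the FLAG ratio had a Spearman's rho of −0.53 with the Ctrl RNA-seq level, −0.34 with GC content and 0.08 with length, and the Ctrl ratio one of −0.31, −0.46 and 0.01. These are descriptions over genes measured in the same libraries.

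KRAB members stood higher than the others within each lysate. Their median log2 ratio of IP over Input, with 1 added to each CPM, was −0.49 and 0.13 in the FLAG lysates and 0.02 and 0.20 in the Ctrl lysates. For members without a found KRAB box it was −0.91 and −0.20 in FLAG and −0.19 and −0.14 in Ctrl. The order of these 2 classes was thus the same in both arms. Protein-coding genes above the TPM limit had medians of −0.87 and −0.28 in FLAG and −0.19 and −0.15 in Ctrl. For all genes the medians were 0.47 and 0.10 in FLAG and 0.04 and 0.03 in Ctrl. KRAB members thus lay below all genes in FLAG replicate 1. The arms differed in more than the tag, since no injected Lsm1 RNA was visible in the control lysates. The classes also differed in GC content, as given above, and its part was not tested.

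**Figure D5:**
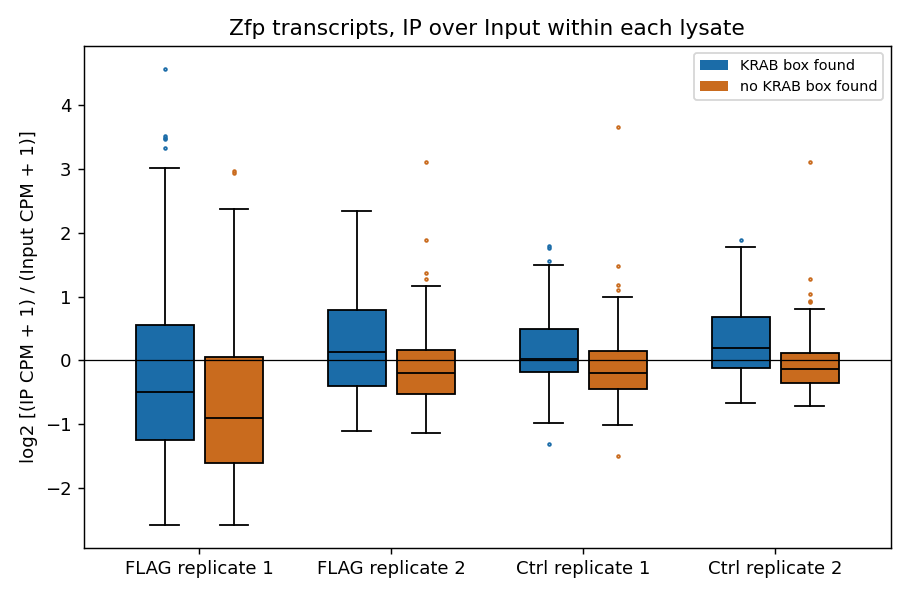
Log2 ratio of IP over Input within each lysate, with 1 added to each normalised CPM, for 150 KRAB members and 108 members without a found KRAB box; boxes span the quartiles with the median as a line, whiskers reach 1.5 times the box, and dots lie beyond. The KRAB box is drawn above its neighbour in all 4 lysates, and the FLAG replicate 1 medians are the lowest.

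The members lower in FLAG IP were mostly of middle level. Zfp341 was at 14.4 and 26.1 CPM in FLAG IP against 75.3 and 47.2 in FLAG Input (−1.60 ± 0.38 SE, adjusted p = 0.0163). Zfp930 was at 10.4 and 18.6 CPM against 31.6 and 39.2 (−1.29 ± 0.34 SE, adjusted p = 0.0231), and Zfp58 at 33.4 and 57.1 against 122 and 121 (−1.43 ± 0.39 SE, adjusted p = 0.0244). In all 3, both IP libraries lay below both Inputs. Zfp61 and Zfp235, on chromosome 7, were lower too, by log2 ratios of −1.20 and −1.11 (adjusted p = 0.0327 and 0.0345). In the Ctrl arm these 5 genes had ratios from −0.59 to −0.07 that were not called. Zfp57 was at 697 and 2637 CPM in FLAG IP against 4168 and 4058 in FLAG Input, with an adjusted p of 0.305, its 2 IP libraries being far apart.

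Members were also grouped by chromosome, and chromosome 4 is described after the values of all chromosomes were seen. It had the highest share of members called higher in FLAG IP and the highest median FLAG ratio. Other chromosomes differed: of 57 members on chromosome 7, 6 were higher and 8 lower. Of 20 members on chromosome 13, 3 were higher and 1 lower. Of 19 members on chromosome 4, 6 were higher in FLAG IP (31.6%) and 0 lower, beside 21.0% and 5.48% of all genes and 11.2% and 5.43% of all members. Their median log2 ratio was 0.76 in FLAG, beside 0.49 for all genes and −0.29 for all members, and 0.82 in the Ctrl arm, beside 0.12 and 0.01. Zfp982, the most abundant of them at 51.2 and 319 TPM in Ctrl, was at 98.4 and 109 CPM in FLAG IP against 39.6 and 28.6 in Input (1.61 ± 0.33 SE, adjusted p = 0.00889). In the Ctrl arm it was at 54.2 and 48.6 CPM against 23.0 and 21.1 (1.22 ± 0.32 SE, adjusted p = 0.0792). Zfp600, whose unit above is 1 base from that of Zfp980, had ratios of 1.82 and 1.75 in the 2 arms (adjusted p = 0.0122 and 0.0501), and Zfp980, named after its values were seen, had ratios of 1.55 and 1.70 (adjusted p = 0.0222 and 0.0580). Over 20% of the windows of Zfp600 and Zfp980 occur in other genes, so these values are not independent of each other.

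Set against each other, the arms gave no called difference for any member. In the test of the difference of the 2 IP over Input ratios, 0 of 258 members and 0% of all genes were called by edgeR. An unadjusted p under 0.05 was found for 6 members, beside 996 of all 18972 genes and repeats. DESeq2, limma and the fit with the lysate as a block also called 0 members. The differences ran from −1.74 to 2.60 on the log2 scale. Zfp772, Zfp422 and Zfp983 had the highest among members with a mean of at least 50 counts, at 2.0, 1.77 and 1.73, and Zfp85, Zfp947 and Zfp511 the lowest, at −1.74, −1.42 and −1.34. Zfp267 had a difference of 1.48 (adjusted p = 0.790). Without FLAG IP replicate 2, the median difference moved from −0.30 to −0.70 for members. For protein-coding genes above the TPM limit it moved from −0.38 to −0.79. Members were called in both directions in that fit, which assumes that the lone FLAG IP library varies like the other groups. The Inputs were closer. In FLAG Input over Ctrl Input, 0 members and 0% of all genes were called by edgeR, and DESeq2 called 0 members. Here 3 members had an unadjusted p under 0.05, beside 176 of all 18972 genes and repeats. Of the 258 members, 254 differed by less than 1 on the log2 scale. The ratios ran from −1.32 to 1.09. Among members with a mean of at least 50 counts, Zfp940, Zfp600 and Zfp385b had the highest ratios at 1.09, 1.02 and 1.004, and Zfp935, Zfp398 and Zfp593 the lowest at −0.57, −0.56 and −0.54.

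A few members were called in both experiments. Of the 13 members that rose in Lsm1_KD and the 29 that were higher in FLAG IP, 4 were shared, Zfp267, Zfp422, Zfp626 and Zfp937, or 30.8% of the first list and 13.8% of the second. For comparison, 11.2% of all members and 21.0% of all genes were higher in FLAG IP, and 5.16% of tested members and 6.45% of all genes rose in the knockdown. Zfp422 was at 23.0 and 8.60 CPM in FLAG IP against 2.13 and 1.59 in Input (3.09 ± 0.65 SE, adjusted p = 0.0102), and Zfp937 at 62.2 and 23.3 against 10.2 and 9.65 (2.11 ± 0.45 SE, adjusted p = 0.0105). In the Ctrl arm their ratios were 1.32 and 1.25. Zfp1, which fell in the knockdown, was at 8.79 and 8.76 CPM in FLAG IP against 1.87 in both Inputs (2.23 ± 0.62 SE, adjusted p = 0.0267). Zfp873, which also fell, was at 11.8 and 26.4 CPM against 44.4 and 42.8 (−1.19 ± 0.38 SE, adjusted p = 0.0389). Over the 252 members with both values, the knockdown change and the FLAG ratio had a Pearson's r of 0.13 and a Spearman's rho of 0.13, as a description across genes.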

How the data were processed

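RNA-seq (KAPA stranded kit) and RIP-seq (SMARTer stranded kit) reads were quantified by the authors with Salmon; the submitters' processing notes also name Trimmomatic, FastQC and mm10, without versions. The authors deposited, per library, estimated counts (NumReads) and TPM for 37713 features, of which 37366 were RefSeq transcripts and 347 repeats. Both deposited values were summed by gene symbol into 25091 genes and repeats; 294 transcripts could not be matched and were kept under their own names. Of the values above 0, 55.5% of the deposited estimated counts were not whole (tolerance 1e-06), and gene sums were rounded.

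Genes were filtered with filterByExpr, scaled by TMM and tested with edgeR 4.0.16 (quasi-likelihood) in R 4.3.3, with Benjamini-Hochberg adjustment over all features tested. The 4 RNA-seq libraries were fitted together, as were the 8 RIP-seq libraries. DESeq2 1.42.0 and limma 3.58.1 on log2 (TPM + 1) or log2 (TPM + 0.1), which understates the change of low genes, were alternatives. The edgeR tests were tried on simulated data with known changes. In the knockdown setting, 75.8% of 4-fold and 84.7% of 8-fold changes were called. For FLAG IP over FLAG Input these were 43.0% and 76.0%. The simulated libraries of a group differed by depth and the fitted spread alone, unlike the 2 FLAG IP libraries described above.

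Named genes were up to 10 members per direction with the smallest adjusted p in the knockdown, the 8 most abundant in Ctrl, listed role genes with at least 50 mean counts, 3 genes on each side of the TPM limit, up to 5 members per direction and RIP-seq comparison (or the 3 highest and 3 lowest ratios where none was called), and up to 4 called cofactors per direction. The members and lists were chosen with earlier results of these data known. KRAB boxes and fingers were found by pattern in RefSeq coding sequences of GRCm38, and finger counts refer to the transcript with the most. Coordinates are 1-based. The correlation between same-numbered libraries in their deviations was 0.14 for FLAG IP and Input and 0.11 for Ctrl IP and Input, which share a lysate in the study's methods.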

Additional observations from a re-analysis of the deposited data

How the results depend on the processing

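With 2 libraries per group, counts of called members moved with the settings, and the cause was not tested unless the setting itself removes libraries or genes. The share of all genes called in each setting is not given, so these counts are not read as results about the members. In Lsm1_KD over Ctrl (13 higher, 9 lower), DESeq2 gave 17 lower, no low-count filter 21 and 18, and limma 3 higher with either pseudocount. Leaving out 1 library gave 11 to 22 higher and 3 to 8 lower. The RNA-seq libraries share only a number (correlation of deviations −0.17), and with the number as a replicate block 9 were higher and 3 lower. Crossed pairing, chosen after seeing the data, gave 32 and 26.

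In FLAG IP over FLAG Input (29 higher, 14 lower), the lysate block and DESeq2 each gave 31 lower, removal of the length trend 15 higher and 45 lower, limma on log2 (TPM + 0.1) 6 and 32, limma on log2 (TPM + 1) 4 and 30, no filter 25 lower, the 4 libraries alone 14 and 1, and members above 5 TPM 12 higher. Leaving out 1 library gave 4 to 47 higher and 0 to 130 lower. In Ctrl IP over Ctrl Input (1 higher, 0 lower), the lysate block gave 9 and 1, DESeq2 6 higher, no filter 10 and 1, the 4 libraries alone 28 and 2, members chosen by Ctrl Input 2 higher, and members above 5 TPM 0 higher. Leaving out 1 library gave 1 higher and 0 lower there. For the difference of the arms (0 and 0), leaving out 1 library gave 0 to 18 higher and 0 to 105 lower, and the block changed no call there or between the Inputs. Counts over members with little shared sequence, also chosen after seeing the data, stayed within 1.5 times of those reported.

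For the named genes in the knockdown, 495 values under alternatives kept their direction and side of the threshold, 61 lost a call, 36 gained one and 32 changed sign. None of those that changed sign was a called gene. With limma on log2 (TPM + 0.1) and log2 (TPM + 1), log2 changes turned to −0.17 and −0.17 for Zfp131, −0.15 and −0.11 for Zfp281, −0.26 and −0.26 for Zfp513, −0.0061 and −0.0061 for Zfp57, −0.27 and −0.27 for Zfp598, −0.21 and −0.21 for Zfp655, and −0.030 and −0.029 for Zfp830. On those scales the median of all genes was −0.26 and −0.23. DESeq2 gave −0.038 for Zfp513 and −0.020 for Zfp598, no filter −0.032 and −0.021, removal of the length trend −0.020 for Zfp513 and 0.042 for Zfp592, and RLE size factors −0.011 for Zfp513. Leaving out 1 library at a time, log2 changes ran from −0.025 to 0.25 for Zfp131, −1.29 to 0.39 for Zfp217, −0.37 to 0.57 for Zfp281, −0.26 to 0.29 for Zfp513, −0.84 to 0.080 for Zfp532, −0.22 to 0.011 for Zfp592 and −0.12 to 0.13 for Zfp598, and from −1.61 to 0.17 for Zfp593 in FLAG Input over Ctrl Input.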

Other observations

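Other families of zinc finger genes, grouped by symbol, are given as values, and single genes were named after their values were seen. Of 33 tested Zbtb genes, which pair fingers with a BTB domain, 2 rose in Lsm1_KD and 0 fell, beside 6.45% and 4.56% of all genes. Zbtb18, a transcriptional repressor, was at 215 and 141 CPM in Lsm1_KD and at 76.99 and 80.0 in Ctrl (edgeR, log2 change 1.18 ± 0.25 SE, adjusted p = 0.0161), and Zbtb6 was at 22.5 and 17.1 against 3.23 and 7.85 (adjusted p = 0.0443). Of 14 tested Zc3h genes, whose CCCH fingers bind RNA, 1 rose, Zc3h4, at 53.2 and 56.4 CPM against 26.7 and 29.1 (0.98 ± 0.26 SE, adjusted p = 0.0411).

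In the FLAG IP, 3 of 40 Zbtb genes were higher than in FLAG Input and 1 lower, and 4 of 16 Zc3h genes were higher and 1 lower. The Zc3h genes that were higher were Zc3h12a, Zc3h12b, Zc3h12d and Zc3h7a, with log2 ratios from 1.72 to 3.87, and the 1 lower was Zc3h7b (−1.55, adjusted p = 0.0395). Those shares stood beside 21.0% and 5.48% of all genes.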
